A study of Mus musculus with 2 samples.

Results

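Small leucine-rich proteoglycans are secreted matrix proteins, and 9 of their genes were followed here among the 21113 genes of the deposited tables: Dcn, Lum, Bgn, Fmod, Ogn, Prelp, Aspn, Omd and Podn. They were taken by gene symbol, and all 9 had a row in both tables. Polyadenylated RNA was sequenced from mammary glands of C57BL/6 animals, both genotypes at postnatal week 6. The ILN/ILN sample was homozygous for a cassette of IRES, LacZ and Neo inserted where miR-212 and miR-132, a pair of microRNAs, are encoded, and the wild-type sample was without it. Levels of both microRNAs were not analysed here, and the genotypes are taken as labelled. Each genotype had 1 library, so no difference below has a replicate check and none was tested. Whole gland was used, and the labels do not say how many animals each library holds.

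Proteins of this family carry a curved stack of leucine-rich repeats, with which many of them bind collagen fibrils and set fibril width and spacing. Several also carry chondroitin, dermatan or keratan sulfate chains, and some hold growth factors of the TGF-beta family in the matrix. In the mammary gland the stroma of fibroblasts, fat and vessels around the ducts holds this matrix. The genes fall by sequence into class I (Dcn, Bgn, Aspn), class II (Lum, Fmod, Prelp, Omd), class III (Ogn) and a class of more distant relatives, class V (Podn).

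Genes took 42953129 fragments of the ILN/ILN library and 46133338 of the wild-type library. Levels are the authors' FPKM-like values, called values here, which are scaled for gene length and library size. Ratios are ILN/ILN over wild type from fragments scaled by these totals, with a 95% interval for counting error alone in parentheses. Log2 ratios are log2 of (ILN/ILN value + 1)/(wild-type value + 1), which understates differences of genes with low values. A gene counted as measured when its value was at least 1 in either library, as for 11556 genes, whose median log2 ratio was 0.02.

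Cell type markers differed between the libraries. The 12 fibroblast markers had a summed value of 2707 in the ILN/ILN and 2526 in the wild-type library, with none at 0, 8 log2 ratios above 0 and 4 below. Markers of luminal epithelium, 9 of 11 measured, summed to 4.93 in the ILN/ILN and 49.8 in the wild-type library. Most of the first sum was Kit, at 3.96 in the ILN/ILN and 4.09 in the wild-type library. Krt8, Elf5 and Cldn7 were at 0 in the ILN/ILN library. The basal keratin genes Krt5, Krt14 and Krt17 were also at 0 there. Of the keratin genes on these lists, Krt18 and Krt19 alone had fragments in the ILN/ILN library, 2 and 24, against 583 and 1029 in the wild-type library. The 7 B cell markers summed to 36.8 in the ILN/ILN and 208 in the wild-type library, and the 7 macrophage markers to 1257 and 1925, with none of either list at 0. The 8 endothelial markers summed to 170.0 in the ILN/ILN and 141 in the wild-type library, with none at 0. The 7 T cell markers summed to 20.5 in the ILN/ILN and 60.6 in the wild-type library, the 10 white adipocyte markers to 75931 and 84832, and the 6 peripheral nerve markers to 80.4 and 104, with none at 0. The adipocyte sum was lower mainly through Cfd, at 25465.8 in the ILN/ILN and 33952.5 in the wild-type library. Of the 10 adipocyte log2 ratios, 7 were above 0 and 3 below. The 8 basal epithelial markers summed to 59.7 in the ILN/ILN and 77.9 in the wild-type library. Most of both sums was Acta2, also a contractile gene of smooth muscle, at 43.4 in the ILN/ILN and 56.5 in the wild-type library. The 6 skeletal muscle markers, Myh4 at 0 in the ILN/ILN library, summed to 60.6 in the ILN/ILN and 48.6 in the wild-type library. The muscle sum was higher through Myl1 alone, at 51.4 in the ILN/ILN and 37.7 in the wild-type library. Of the 3 measured muscle markers, 1 log2 ratio was above 0 and 2 were below. In whole tissue, fewer cells of a type and less RNA per cell cannot be told apart. The part of these shifts in the values below was not tested.

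The family as a whole was slightly higher in the ILN/ILN library, and its members did not move in 1 direction. The 9 genes took 0.303% of the ILN/ILN fragments, 130047 in number, and 0.257% of the wild-type fragments, 118743 in number, a ratio of 1.18 (1.17 to 1.19). Prelp and Bgn were higher, Podn and Fmod lower, and Dcn and Lum differed by less than 1.1-fold, while the rarely detected Omd had the highest ratio. Aspn, with few fragments, was also higher, at 1.47 (1.11 to 1.96), and Ogn was at 0.819 (0.660 to 1.01). Class II genes together had a fragment ratio of 1.41 (1.39 to 1.43), most of it from Prelp, and class I genes 1.13 (1.12 to 1.14). In summed values the ratio was 1.14 for the family and 1.07 for the 12 fibroblast markers. Of those markers 8 were higher, among them Dpt, at 953 in the ILN/ILN and 833 in the wild-type library, and S100a4, at 253 and 117. The other 4 were lower, among them Pi16, at 147 in the ILN/ILN and 207 in the wild-type library, and Mfap5, at 82.1 and 143.

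Levels spanned more than 3 powers of 10, in the same order in both libraries. Dcn was highest, then Prelp, Bgn, Podn, Lum, Aspn, Fmod, Ogn and Omd, in the ILN/ILN as in the wild-type library, although Aspn would fall below Ogn if only its fragments were read. With 1 library each, neighbours in this order have no spread to be set against. Prelp and Bgn lay close together, at a level ratio of 1.15 in the ILN/ILN and 1.03 in the wild-type library. Among all 21113 genes Dcn ranked 128 in the ILN/ILN and 149 in the wild-type library, Prelp 352 and 498, and Bgn 398 and 514, so these transcripts were among the abundant ones of the gland. Podn ranked 1979 in the ILN/ILN and 1416 in the wild-type library, whereas Fmod ranked 9354 and 8429.

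**Figure D1:**
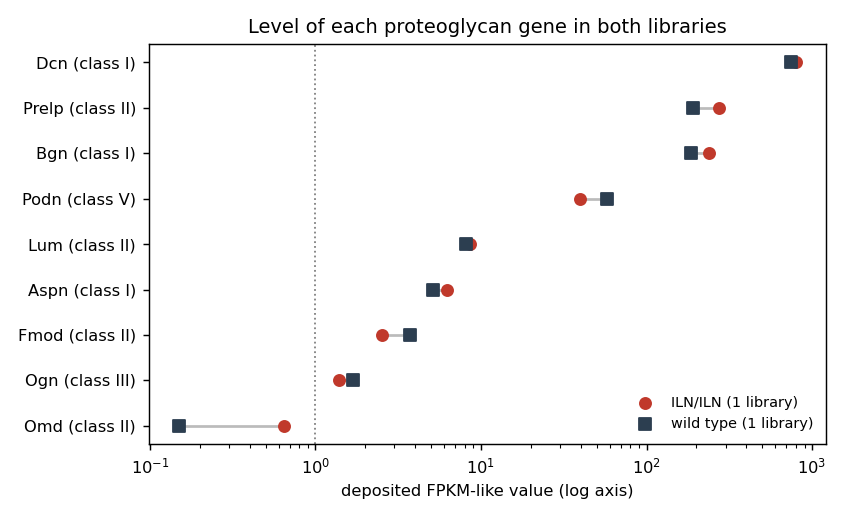
Deposited value of each gene (horizontal log axis) in the ILN/ILN library (circles) and the wild-type library (squares), 1 library each, ordered by level; the dotted line marks a value of 1. Dcn lies near 795 and 743, Omd below 1 in both, and the order of the genes is shared.

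Decorin, encoded by Dcn (identifier 13179), is a class I proteoglycan that binds type I collagen and TGF-beta. Dcn had a value of 795 in the ILN/ILN library and 743 in the wild-type library, from 54764 and 55043 fragments. Its ratio was 1.07 (1.06 to 1.08), and its log2 ratio of 0.10 lay at percentile 64.5 of all measured genes, well inside their spread. The table lists 2 isoforms of Dcn, and a second estimate that the authors derived from them gave 398 in the ILN/ILN and 295 in the wild-type library, a ratio of 1.35. The deposited value uses the larger estimate, here the fragments themselves, so the size of the Dcn difference depends on which estimate is read. Ratios to Dcn and shares of the family below use the fragments or deposited values of Dcn. They would change with the derived estimate.

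Biglycan, encoded by Bgn (identifier 12111) on the X chromosome, is the closest relative of decorin, and its soluble form is known as a ligand of the receptors Tlr2 and Tlr4. Bgn was at 237 in the ILN/ILN and 185 in the wild-type library, from 24789 and 20746 fragments, a ratio of 1.28 (1.26 to 1.31). Its log2 ratio of 0.36 lay at percentile 93.5. Relative to Dcn, which removes the scaling of the libraries, Bgn stood at 0.298 of the Dcn level in the ILN/ILN and 0.248 in the wild-type library, and this ratio was 1.20-fold higher (1.17 to 1.23). The derived Dcn estimate had a ratio of 1.35, above that of Bgn. With it Bgn over Dcn would be lower in the ILN/ILN library.

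Asporin, encoded by Aspn (identifier 66695), is a class I protein without a sugar chain that binds collagen and TGF-beta. Aspn was at 6.28 in the ILN/ILN and 5.15 in the wild-type library, but these values came from the estimate derived from its 2 isoforms. From fragments alone, 122 in the ILN/ILN and 89 in the wild-type library, its level was 1.23 and 0.833, so the deposited values were 5.11 and 6.18 times the level from fragments. The ratio was 1.47 (1.11 to 1.96) from fragments and 1.22 from the deposited values. Both estimates placed Aspn higher in the ILN/ILN library, with the fragments few enough that the size is uncertain.

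Prelp (identifier 116847) encodes a class II protein whose basic amino-terminal stretch binds heparan sulfate and which links basement membranes to the collagen around them. Prelp had 43513 fragments in the ILN/ILN library and 32615 in the wild-type library. Its values were 273 in the ILN/ILN and 190.4 in the wild-type library, a ratio of 1.43 (1.41 to 1.45). This was the highest log2 ratio among the measured members, 0.52, at percentile 97.3 of all measured genes. Relative to Dcn it was 1.34-fold higher (1.32 to 1.37), at 0.343 of the Dcn level in the ILN/ILN and 0.256 in the wild-type library.

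Lumican, encoded by Lum (identifier 17022), carries keratan sulfate in the cornea and limits the width of collagen fibrils there and in skin. Lum was at 8.58 in the ILN/ILN and 8.08 in the wild-type library, from 776 and 785 fragments. Its ratio of 1.06 had an interval that includes 1 (0.960 to 1.17). Dcn, its neighbour on chromosome 10, stood 92.6-fold above Lum in the ILN/ILN and 92.0-fold in the wild-type library, and this ratio between them differed by 1.01-fold (0.910 to 1.11).

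Fibromodulin, encoded by Fmod (identifier 14264), is a keratan sulfate proteoglycan of tendon and other dense tissue that competes with lumican for collagen. Fmod was at 2.54 in the ILN/ILN and 3.73 in the wild-type library, from 320 and 504 fragments, 1.47-fold lower (1.27 to 1.69). Its log2 ratio of -0.42 lay at percentile 9.41. The tendon markers Tnmd, Scx and Mkx were near 0, with a summed value of 0.186 in the ILN/ILN and 0.176 in the wild-type library.

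Osteomodulin, encoded by Omd (identifier 27047), is an acidic class II proteoglycan known from bone. Omd had 48 fragments in the ILN/ILN and 12 in the wild-type library, a ratio of 4.30 (2.25 to 8.89), with values of 0.649 and 0.151. It stayed under the value of 1 in both libraries and was the only member not counted as measured. Of the 9 cartilage and bone markers, Acan, Col2a1, Col10a1, Bglap and Ibsp were at 0 in the ILN/ILN library, and the list summed to 1.68 there and 1.02 in the wild-type library. The rest of that sum was mostly Comp, a matrix protein of cartilage and tendon, at 1.48 in the ILN/ILN and 0.764 in the wild-type library.

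Osteoglycin, encoded by Ogn (identifier 18295) and also called mimecan, is the class III member and takes part in collagen fibril assembly. Ogn was at 1.38 in the ILN/ILN and 1.69 in the wild-type library, from 154 and 202 fragments. It was 1.22-fold lower, with an interval that includes 1 (0.985 to 1.52).

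Podocan, encoded by Podn (identifier 242608), was first known from kidney podocytes, and in mice its loss raises the growth of vascular smooth muscle. Podn was at 39.7 in the ILN/ILN and 58.1 in the wild-type library, from 5561 and 8747 fragments, 1.46-fold lower (1.42 to 1.51). Its log2 ratio of -0.54 was the lowest of the members, at percentile 6.22 of measured genes. Relative to Dcn it was 1.56-fold lower (1.51 to 1.62). Acta2, a contractile gene of smooth muscle, was at 43.4 in the ILN/ILN and 56.5 in the wild-type library, 1.30-fold lower (1.246 to 1.36). Of other contractile genes, Myh11 had a fragment ratio of 0.969 (0.918 to 1.02) and Cnn1 one of 0.780 (0.604 to 1.01), both with intervals that include 1. Cnn1 had few fragments, 109 in the ILN/ILN and 150 in the wild-type library. The deposited Myh11 values were 8.77 in the ILN/ILN and 11.1 in the wild-type library, the second from the derived estimate. Acta2, Myh11 and Cnn1 are also on the list of basal epithelial markers above. The part of smooth muscle in the Podn values was not tested.

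**Figure D2:**
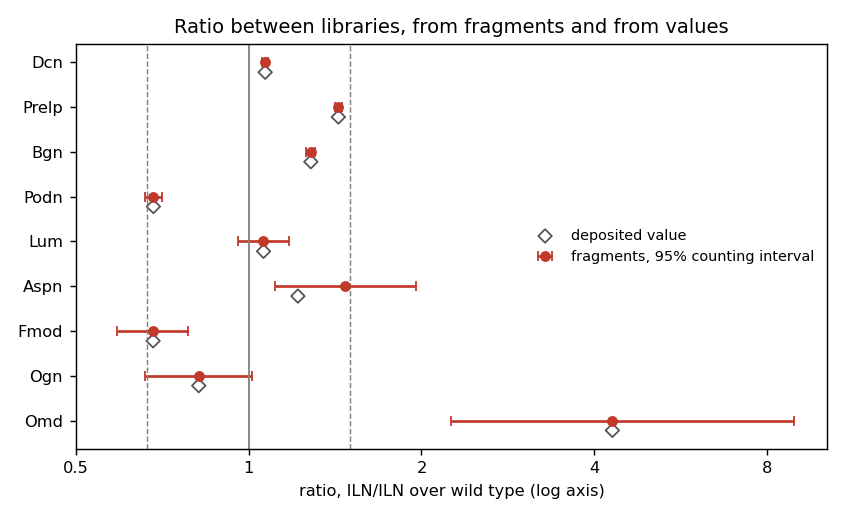
Ratio of ILN/ILN over wild type for each gene on a log axis, from fragments (filled circles, bars are 95% intervals for counting error) and from the deposited values (diamonds); dashed lines mark 1.5-fold. Prelp lies at 1.43 and Podn at 0.683 with short bars, Omd at 4.30 with a long bar, and the 2 marks separate visibly for Aspn.

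Read against the whole table, the differences were modest. None of the 8 measured members was at least 1.5-fold higher or lower on the log2(value + 1) scale, where 1.90% of all measured genes were higher and 5.39% lower. Beside shares that low, a count of 0 in 8 is not a result about the family. At a lower threshold, a log2 ratio of at least 0.32 in size, Prelp and Bgn were higher, 2 of 8 members, beside 8.52% of measured genes, and Podn and Fmod were lower, 2 of 8, beside 13.3%. The members' median log2 ratio was 0.09, against 0.02 for all measured genes, with 5 members above 0 and 3 below. With 8 genes and 1 library per genotype, neither count nor median sets the family apart. Omd was not among these 8.

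**Figure D3:**
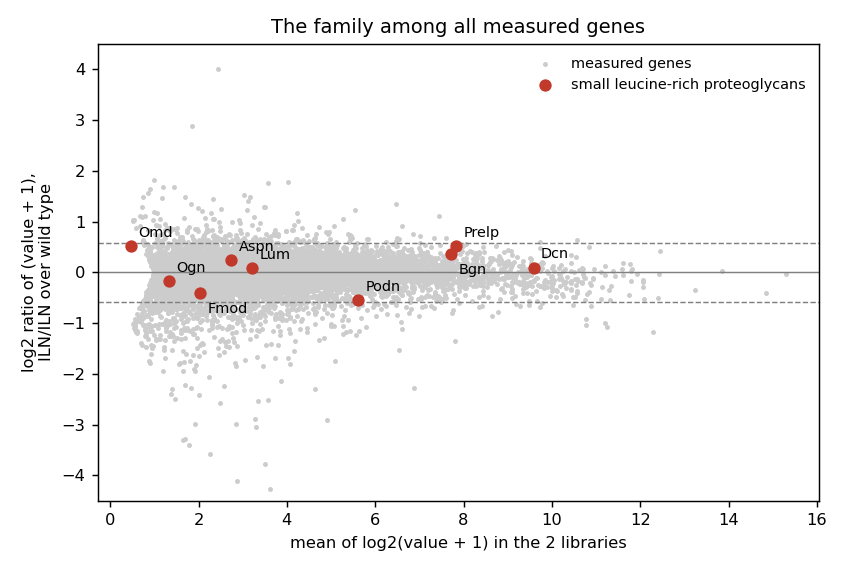
Log2 ratio of (value + 1), ILN/ILN over wild type, against the mean log2(value + 1) of both libraries for measured genes (grey) and the 9 proteoglycan genes (red, Omd included although under the minimum); dashed lines mark 1.5-fold. All 9 lie between the dashed lines, Prelp at 0.52 and Podn at -0.54 nearest to them among the measured ones.

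Ratios between members within a library are free of library scaling and showed the shift in make-up more plainly. Podn stood at 0.145 of the Prelp level in the ILN/ILN and 0.305 in the wild-type library, a ratio 2.10-fold lower (2.02 to 2.18). Fmod over Prelp was 2.10-fold lower as well (1.82 to 2.43). These pairs were chosen after the values were seen. They join Prelp, with the highest log2 ratio among the measured members, to Podn and Fmod, with the lowest. In fragments Aspn had a higher ratio than Prelp. Fmod over Aspn was 2.16-fold lower (1.57 to 2.97) and Podn over Aspn 2.16-fold lower (1.62 to 2.87). Of the 36 pairs of members, 30 had a ratio between them that differed between the libraries beyond counting error, which at these depths says nothing of differences between animals. In shares of the summed values, Dcn made up 58.3% in the ILN/ILN and 62.2% in the wild-type library, Prelp 20.01% and 15.9%, Bgn 17.4% and 15.4%, and Podn 2.91% and 4.86%. The family's transcripts thus came almost wholly from Dcn, Prelp, Bgn and Podn in both libraries. The direction of the Dcn share depends on the estimate read. The derived Dcn estimate had a ratio of 1.35, above the 1.26 of the summed values without Dcn. With it the Dcn share would be higher in the ILN/ILN library.

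**Figure D4:**
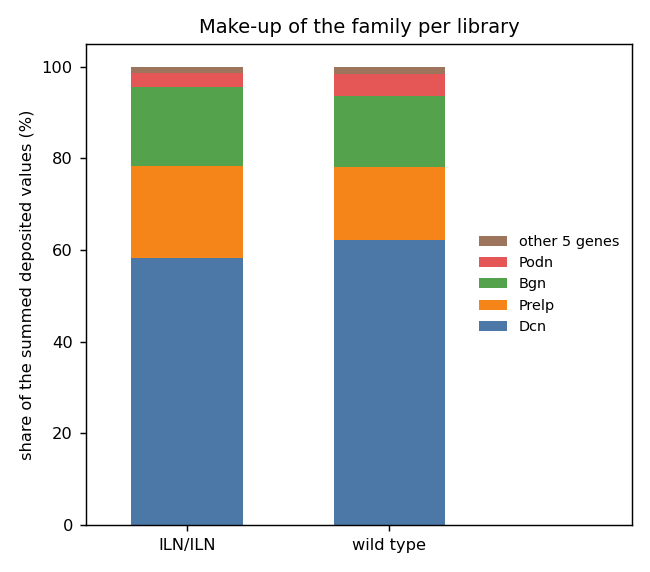
Share of the family's summed deposited values held by each gene (vertical axis, percent) in the ILN/ILN and the wild-type library, 1 library each. Dcn holds 58.3% and 62.2%, Prelp 20.01% and 15.9%, Bgn 17.4% and 15.4%, Podn 2.91% and 4.86%, and the other 5 genes together 1.42% and 1.57%.

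Members that lie side by side in the genome did not all share their ratios. In the GRCm38 annotation of RefSeq, Prelp and Fmod are neighbours on chromosome 1 with no protein-coding gene between them, and the first was 1.43-fold higher in the ILN/ILN library while the second was 1.47-fold lower. On chromosome 13 the order is Ecm2, Aspn, Omd and Ogn, where Aspn and Omd had fragment ratios above 1 and Ecm2 and Ogn below 1. Ecm2, a leucine-rich matrix protein, was at 4.54 in the ILN/ILN and 5.40 in the wild-type library, 1.19-fold lower (1.08 to 1.31). On chromosome 10 Dcn and Lum had nearly equal ratios, and the cornea and cartilage genes Kera and Epyc next to them had 0 fragments in the ILN/ILN and 3 and 5 in the wild-type library. In the GENCODE M21 annotation the gene Cenpp spans Aspn, Omd and Ogn on the opposite strand, and it had 31 fragments in the ILN/ILN and 15 in the wild-type library. Podn overlaps Scp2 on the same strand, which was at 479.8 in the ILN/ILN and 467 in the wild-type library, 1.03-fold higher (1.01 to 1.04). Cenpp and Scp2 were named after their values were seen. Whether the authors' counting used strand or split reads of overlapping genes is not stated by the labels or headers, and the values of Aspn, Omd, Ogn and Podn are uncertain to that extent. Prelp is too, since the antisense gene Gm15851, not analysed here, overlaps it on the opposite strand.

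The promoters of Prelp, Bgn, Podn and Fmod, the measured members with a log2 ratio of at least 0.32 in size, are shown because they put the higher and lower genes side by side. Each runs from 250 bases before to 50 bases after the transcription start, 5′ to 3′ on the gene's strand, from RefSeq on GRCm38.p6, where 7 of the 9 genes had an entry. Capitals mark the CCAAT box (CCAAT) and the GC box (GGGCGG), each on either strand. Both names stand here for the letters alone, anywhere in the stretch, and their use as promoter elements was not tested.
Prelp, GRCm38.p6 chr1:133921352-133921651, minus strand: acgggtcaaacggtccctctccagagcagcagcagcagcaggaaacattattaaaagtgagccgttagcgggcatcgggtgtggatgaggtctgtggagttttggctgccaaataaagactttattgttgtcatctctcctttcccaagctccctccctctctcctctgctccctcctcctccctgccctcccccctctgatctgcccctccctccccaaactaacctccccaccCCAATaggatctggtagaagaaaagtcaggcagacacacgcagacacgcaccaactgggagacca
Bgn, GRCm38.p6 chrX:73483351-73483650, plus strand: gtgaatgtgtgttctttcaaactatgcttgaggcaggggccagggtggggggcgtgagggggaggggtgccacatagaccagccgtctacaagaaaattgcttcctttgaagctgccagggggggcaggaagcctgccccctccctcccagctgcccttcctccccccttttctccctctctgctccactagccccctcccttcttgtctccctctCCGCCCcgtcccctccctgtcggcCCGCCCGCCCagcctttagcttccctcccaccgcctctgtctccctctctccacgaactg
Podn, GRCm38.p6 chr4:108031905-108032204, minus strand: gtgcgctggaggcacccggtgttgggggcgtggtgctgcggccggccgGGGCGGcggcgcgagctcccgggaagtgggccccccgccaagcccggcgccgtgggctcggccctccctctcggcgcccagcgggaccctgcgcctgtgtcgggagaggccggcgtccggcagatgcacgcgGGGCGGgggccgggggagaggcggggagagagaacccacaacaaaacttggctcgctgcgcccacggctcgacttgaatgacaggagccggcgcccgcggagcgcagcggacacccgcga
Fmod, GRCm38.p6 chr1:134037004-134037303, plus strand: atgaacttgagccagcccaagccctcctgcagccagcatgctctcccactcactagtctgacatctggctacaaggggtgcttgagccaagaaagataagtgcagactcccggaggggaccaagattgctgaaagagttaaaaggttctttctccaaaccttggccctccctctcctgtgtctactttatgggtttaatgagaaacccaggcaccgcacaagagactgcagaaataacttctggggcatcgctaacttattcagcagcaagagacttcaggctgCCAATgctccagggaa
The Podn stretch, the first of 2 listed for that gene, had 41 CpG dinucleotides and a GC content of 77.0%, against a median of 7 and 52.7% over 32851 promoters of the same length. Bgn had 9 CpG and 63.7% GC, Prelp 7 and 55.3%, and Fmod 3 and 51.0%. Prelp and Fmod, with opposite ratios, each held 1 CCAAT box, found in 37.4% of all promoters. That of Prelp lies before the transcription start and that of Fmod after it. Podn held 2 GC boxes and Bgn 3, of which 2 overlap, a motif found in 35.7% of all promoters. None of the 4 held the letters TATAAA on either strand, found in 13.6%. In the stretches shown, the CCAAT box and the GC box were each found in 1 higher and 1 lower member. The second Podn stretch, not shown, held no GC box, with 7 CpG and a GC content of 63.0%.

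MiR-132-3p and miR-212-3p, the products of the targeted locus, share their seed (bases 2 to 8, in capitals), by which microRNAs pair with messenger RNAs, mostly in 3′ untranslated regions (UTRs). Their mature sequences in RefSeq are as follows.
miR-132-3p: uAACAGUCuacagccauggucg
miR-212-3p: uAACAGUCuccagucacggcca
The 7-base match to this seed, GACTGTT, was in the longest GENCODE M21 3′ UTR of none of the 9 members and of 12.6% of the 11322 measured genes with such a region. The shorter match to bases 2 to 7, ACTGTT, was in Prelp, with 3 copies in a UTR of 2302 bases, and in Aspn and Ogn, with 1 copy each in 934 and 1518 bases. Of measured genes 40.1% held it. These matches, in capitals with the bases around them, are shown because they are all the copies of these letters in the members' UTRs.
Prelp, base 66 of the 3′ UTR: tctggggtccACTGTTtttatctgtc
Prelp, base 489 of the 3′ UTR: gtcctctgccACTGTTtcctgacacc
Prelp, base 1592 of the 3′ UTR: gtgtcacacaACTGTTttaaaacatt
Aspn, base 666 of the 3′ UTR: gaacacagtaACTGTTaggttacata
Ogn, base 324 of the 3′ UTR: gaaacttgcaACTGTTtgtctttttt
The Aspn copy is followed by an A, as in 12.2% of measured genes. Of the members with the short match, Prelp and Aspn were higher in the ILN/ILN library, and Ogn had a fragment ratio of 0.819 (0.660 to 1.01), an interval that includes 1. Dcn, Bgn, Lum, Fmod, Omd and Podn had no match of either length.

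The rest of the family and its close relatives were scarce. Of 9 genes on that list 3 were measured, with a median log2 ratio of -0.14 and none past 1.5-fold. Tsku, which encodes the signalling inhibitor tsukushi, was at 9.51 in the ILN/ILN and 10.6 in the wild-type library, 1.12-fold lower (1.03 to 1.21). Chadl, which encodes a chondroadherin-like protein, was at 1.75 in the ILN/ILN and 1.31 in the wild-type library, a ratio of 1.34 (1.08 to 1.66). Optc, the neighbour of Prelp that encodes opticin of the eye, stayed just under the minimum, at 0.995 in the ILN/ILN and 0.896 in the wild-type library, but the first of these came from the derived estimate. Its fragments, 18 in the ILN/ILN and 25 in the wild-type library, lay the other way, a ratio of 0.773 (0.397 to 1.48). Podnl1, the closest relative of Podn, had 36 fragments in the ILN/ILN and 26 in the wild-type library, Nyx 6 and 9, and Chad 4 and 2.

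Enzymes that build the sugar chains of these proteins were next. Counts past 1.5-fold in these lists are on the log2(value + 1) scale, where 1.90% of all measured genes were higher and 5.39% lower, so a gene with low values can pass 1.5-fold in fragments and not be counted. Of 6 enzymes of the linker between protein and chain all were measured and none was past 1.5-fold, with a median log2 ratio of -0.0046. B3gat3, a glucuronosyltransferase of the linker, was at 16.7 in the ILN/ILN and 21.6 in the wild-type library, 1.30-fold lower (1.20 to 1.403), and Fam20b, the xylose kinase, at 17.0 and 14.4. Of 13 measured enzymes of chondroitin and dermatan sulfate, 1 was at least 1.5-fold lower and none higher, with a median of -0.12, which turned to 0.00844 when only genes with a value of at least 5 were kept. That 1 was Chst3, a chondroitin 6-sulfotransferase, with 104 fragments in the ILN/ILN and 708 in the wild-type library, 6.34-fold lower (5.15 to 7.86), and with a pseudocount of 5 the count was 0. Chpf, a factor of chain polymerisation, was at 12.3 in the ILN/ILN and 17.99 in the wild-type library, 1.46-fold lower (1.37 to 1.55), and Csgalnact1, which starts chondroitin chains, at 0.676 and 1.15. Csgalnact1 was 1.70-fold lower in fragments (1.36 to 2.15) and not counted. Chst11, a chondroitin 4-sulfotransferase, was at 5.61 in the ILN/ILN and 4.30 in the wild-type library.

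Of 6 enzymes linked to keratan sulfate 3 were measured, with a median log2 ratio of -0.38. B4galt1, a galactosyltransferase with many other substrates, was at 26.4 in the ILN/ILN and 51.5 in the wild-type library, 1.95-fold lower (1.89 to 2.02), the only gene of the list past 1.5-fold. B4galt4 was at 4.08 in the ILN/ILN and 5.60 in the wild-type library, 1.37-fold lower (1.21 to 1.56). Chst1, a sulfotransferase of keratan sulfate, was at 131 in the ILN/ILN and 95.4 in the wild-type library, a ratio of 1.37 (1.34 to 1.41).

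Among collagens that these proteins bind or shape, 9 of 11 were measured, with a median log2 ratio of -0.11. Of these, 2 passed 1.5-fold on the lower side, Col5a1 and the type VI chain Col6a2, beside 5.39% of all measured genes. Col1a1, Col1a2 and Col3a1, also on this list, had fragment ratios of 1.05 (1.04 to 1.06), 1.10 (1.09 to 1.11) and 0.912 (0.907 to 0.916). Col6a1, a chain of the type VI collagen to which biglycan and decorin bind, had a log2 ratio of -0.56, just inside 1.5-fold, and Col14a1, a collagen on fibril surfaces, one of 0.28. Of 9 measured proteases and helpers of 13 listed, Mmp3 and Mmp14 passed 1.5-fold on the lower side and no gene on the higher, beside 5.39% and 1.90% of all measured genes, with a median of -0.09, which turned to 0.00994 when no minimum value was set. Pcolce, an enhancer of procollagen processing, was 1.39-fold lower (1.35 to 1.42) and its relative Pcolce2 1.30-fold higher (1.254 to 1.35). Of 13 measured growth factors and receptors out of 14, none was past 1.5-fold on the log2(value + 1) scale, with a median of 0.05. Tgfb1, the growth factor bound by decorin, was at 26.7 in the ILN/ILN and 38.3 in the wild-type library, 1.44-fold lower (1.36 to 1.51). Bmp4, a morphogen bound by biglycan, was at 4.24 in the ILN/ILN and 2.69 in the wild-type library, a fragment ratio of 1.57 (1.34 to 1.86), past 1.5-fold in fragments, with a log2 ratio of 0.51. Egfr, a decorin receptor, was at 28.5 in the ILN/ILN and 38.9 in the wild-type library, and P2rx7, an ATP-gated channel, at 5.86 and 8.01, with values from derived estimates in both.

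**Figure D5:**
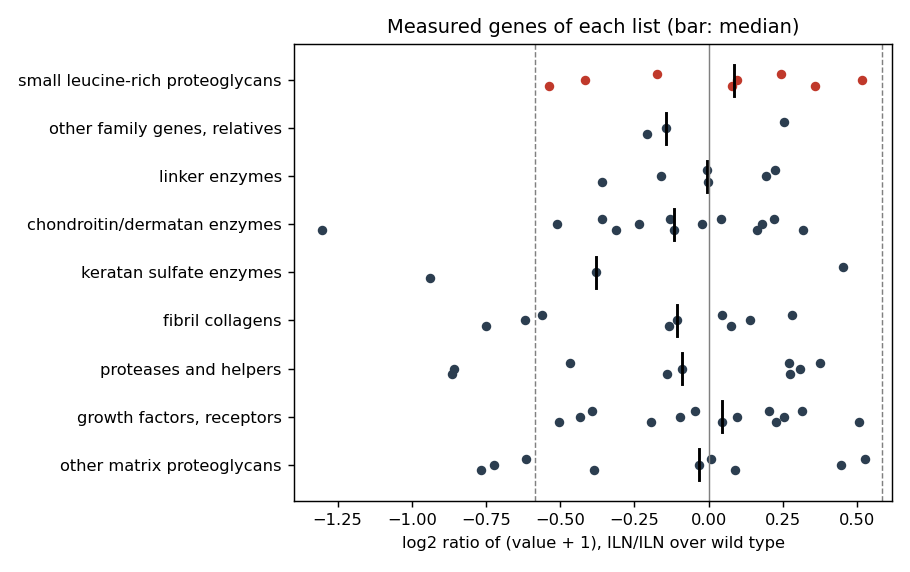
Log2 ratio of (value + 1), ILN/ILN over wild type, for each measured gene (points) of the family and of each surrounding list, with the list median as a bar; dashed lines mark 1.5-fold. The family spans -0.54 to 0.52 with a median of 0.09, and no list holds a gene past 1.5-fold on the higher side of this scale. The row of fibril collagens also holds Col6a1 and Col6a2, chains of type VI collagen.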

How the data were processed

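Total RNA of mammary gland was selected for polyadenylated RNA, copied with a dUTP second strand and run on 2 lanes per sample, per the labels' protocols. Per the submitters' processing notes, which give neither roles nor order, the tools were TopHat 1.4.1, Bowtie 0.12.3 and bedtools and the build mm9. How genes were counted, on which annotation and with what use of strand, was not stated in the labels or headers. Each table as deposited by the authors holds an FPKM-like value per gene, scaled for length and library size. They also deposited log2(value + 1). The deposited signal per kilobase has an original and a derived estimate, and the value uses the larger. The original estimate times gene length was whole, within 0.01, in 100% of genes above 0. This number is called fragments, although reads or read pairs are not distinguished, and 38 genes without a length have none.

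From these were computed ratios of fragments scaled by library totals with exact conditional (Clopper-Pearson) 95% intervals, and log2 ratios with a pseudocount of 1. Intervals cover counting error only, since without molecular identifiers fragments are not separate molecules. No test was run, with 1 library per genotype. A count of 0 allows up to 3 fragments. Counts were simulated for 14038 genes with counting error alone. The intervals covered the true ratio for 97.0% of 100 genes made 1.5-fold higher, 92.0% of 100 made 1.5-fold lower and 95.3% of unchanged genes. Such counts follow the assumption behind the intervals, so this checks the arithmetic only and says nothing of differences between animals. All members and family relatives were named, and from other lists up to 4 measured genes of the most extreme log2 ratios. Genes past a threshold are named too, and so are some others beside them, such as Col1a1, Col1a2, Col3a1 and Dpt. Members and lists were chosen with earlier results of these data known. Col6a3 was not analysed here, and Adgre1 was matched as Emr1. Alternatives covered the pseudocount, scaling, minimum, threshold and estimate. Python 3.11.15, pandas 2.3.3, NumPy 2.4.6, SciPy 1.17.1 and matplotlib 3.10.9 were used.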

Additional observations from a re-analysis of the deposited data

How the results depend on the processing

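No paired analysis was possible because each genotype had 1 library, and for the same reason no replicate could be left out. The sign of a member's log2 ratio cannot change with the pseudocount, nor with the choice of estimate for the 7 members with 1 isoform, so it says little that all 9 kept it. Over 7 alternatives the log2 ratios had ranges of 0.07 to 0.43 for Dcn, 0.49 to 0.52 for Prelp, 0.33 to 0.37 for Bgn, -0.56 to -0.50 for Podn, -0.53 to -0.21 for Fmod and 0.13 to 1.58 for Omd. The highest Dcn value came from the derived estimate alone, an alternative chosen after seeing the data, and the Omd range from the pseudocount. The summed fragment ratio of the members was 1.15 with median ratio scaling and 1.27 without Dcn, both also chosen after seeing the data. At a log2 threshold of 0.32, 2 members were higher and 2 lower, in place of none. The members' median log2 ratio was 0.17 with a minimum of 5. The median of family relatives was -0.0207 with no minimum. For chondroitin and dermatan sulfate enzymes the lower count was 2 and 0 with pseudocounts of 0.1 and 5, and 0 at a minimum value of 5, where the median was 0.00844. Chst3, the gene behind that count, has a value under 5 in both libraries. For proteases the median was -0.11 with median ratio scaling, -0.11 with a minimum of 5 and 0.00994 with no minimum. For other matrix proteoglycans the median was -0.32 with a minimum of 5, and with a pseudocount of 5 the lower count was 1, as it was for collagens. With a pseudocount of 0.1 the higher count was 1 for growth factors and 1 for other matrix proteoglycans. At 2-fold the lower count was 0 for keratan sulfate enzymes, collagens, proteases and other matrix proteoglycans. The cause of these shifts was not tested. Depth limits Omd, Aspn and Ogn, with 12 to 202 fragments per library.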

Other observations

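Of 14 other matrix proteoglycans and related secreted proteins 9 were measured, and 3 passed 1.5-fold on the lower side in the ILN/ILN library with none on the higher side on the log2(value + 1) scale, beside 5.39% of all measured genes lower and 1.90% higher. In fragments Hapln3, a link protein of hyaluronan, was 2.03-fold higher (1.34 to 3.13), with 68 in the ILN/ILN and 36 in the wild-type library, and Prg4, which encodes lubricin, was 4.34-fold lower (1.77 to 12.8), with 6 and 28. The deposited Prg4 values, from the derived estimate in both libraries, were 0.797 in the ILN/ILN and 1.35 in the wild-type library. The 9 measured genes had a median log2 ratio of -0.03. Spock2, which encodes the proteoglycan testican-2, was at 3.07 in the ILN/ILN and 5.93 in the wild-type library, 1.93-fold lower (1.74 to 2.15). Srgn, which encodes serglycin of leukocyte granules, was at 53.3 in the ILN/ILN and 82.1 in the wild-type library, 1.54-fold lower (1.46 to 1.63), and markers of B cells, T cells and macrophages were lower in the same library. The part of those cells in the Srgn values was not tested. The related matricellular genes Smoc2 and Smoc1 differed in direction. Smoc2 was at 13.9 in the ILN/ILN and 23.6 in the wild-type library, 1.70-fold lower (1.599 to 1.80), and Smoc1 had a fragment ratio of 1.31 (1.28 to 1.35), with values from a derived estimate in both libraries.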
